A study of Mus musculus with 12 samples.

Results

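The brush border genes described here are 35 genes for the actin core, membrane links, adhesion bridges and myosins of the enterocyte apical surface. They were chosen by name: a row with the listed symbol had to be present in both raw count tables, and all 35 symbols were found among the 55335 entries of each table. The list held 16 microvillus genes, 13 other myosins, and 6 paralogs and other bundlers, which are relatives of the microvillus genes or bundle actin outside microvilli.

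RNA was sequenced from mouse small intestinal organoids (epithelial cultures embedded in basement membrane gel) in 4 groups of 3 libraries. All organoids came from 1 line of a female Lgr5GFPDTR/+ mouse, in which the stem cell gene Lgr5 carries GFP and the diphtheria toxin receptor, and replicates were separate differentiation experiments, so that the p-values below do not measure variation between animals. RANKL, the TNF-family cytokine that drives differentiation of M cells (the antigen-sampling cells over lymphoid tissue), was compared with ENR control, and RANKL+CSRM617 with RANKL II, a further set of RANKL libraries. CSRM617 was developed to inhibit ONECUT2, a transcription factor that the series title names as a regulator of RANKL-dependent enterocyte and M cell differentiation. RANKL organoids had 3 days of 3 µM CHIR99021, a GSK3 inhibitor, and 1.5 mM valproic acid, which inhibits histone deacetylases, then 1 day of ENR medium (EGF, Noggin and R-spondin 1), then 6 days of 100 ng/mL RANKL. RANKL+CSRM617 organoids had the same course with 40 µM CSRM617 added to the RANKL step, and RANKL II organoids had it without CSRM617. ENR control organoids were collected at day 6 in ENR medium, and their sample descriptions begin with CVENR, a prefix that no label spells out, so that it is not known here whether they had the CHIR99021 and valproic acid step.

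The brush border is a carpet of microvilli, each held up by a bundle of parallel actin filaments. Villin, espin, plastin-1 and EPS8 bundle or cap the filaments, ezrin and class I myosins tie the bundle to the membrane, and the protocadherins CDHR2 and CDHR5 bridge the tips of neighbouring microvilli through a complex of harmonin, ANKS4B and myosin-7B. Below the microvilli lies the terminal web, where nonmuscle myosin II pulls on the filament rootlets and on the junctional belt, while myosins of classes V and VI move vesicles to and from the apical membrane. In the follicle-associated epithelium, M cells are known for a sparse and irregular brush border.

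Library totals were 6351155 to 7719157 counts in RANKL and 5795541 to 7577492 in ENR control, and 10225102 to 14041947 in RANKL+CSRM617 and 8669153 to 11241811 in RANKL II. The ribosomal RNA loci Gm26917 and Gm42418 took 9.712% to 10.7% of the counts in RANKL and 21.87% to 35.52% in ENR control, and 15.27% to 15.77% in RANKL+CSRM617 and 6.438% to 6.714% in RANKL II. Mitochondrially encoded RNA took 2.52% to 2.89% in RANKL and 5.43% to 7.96% in ENR control, and 8.61% to 11.04% in RANKL+CSRM617 and 6.04% to 6.11% in RANKL II. Fold changes also moved with transcript GC content over all genes tested, with a Spearman rho of -0.32 for RANKL against ENR control and 0.59 for RANKL+CSRM617 against RANKL II. For the brush border genes, values with a GC correction (offsets from a per-library smooth on transcript GC content) are given where they change a call or direction. Levels are given as CPM (read counts scaled to library size with TMM factors) in replicate order 1, 2 and 3, changes as log2 fold changes with SE, and a gene is called higher or lower at an edgeR adjusted p under 0.05 over all genes tested. In bulk RNA, fewer cells of a type and less RNA per cell cannot be told apart.

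Of the 35 genes, 33 could be tested in both comparisons. Fscn1, for the actin bundler fascin, had 0 counts in all 12 libraries, where 3 counts over a group would be 0.119 CPM in RANKL, 0.176 CPM in ENR control, 0.0885 CPM in RANKL+CSRM617 and 0.0942 CPM in RANKL II. Myh10, for nonmuscle myosin IIB, had 22 counts over the RANKL libraries against 5 over the ENR control libraries, and 6 over the RANKL+CSRM617 libraries against 5 over the RANKL II libraries, and did not pass the filter on low counts.

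With RANKL, brush border genes moved in both directions. Of the 33 tested, 10 were called higher, 15 lower and 8 neither, where 28.7% of the 13570 genes tested were called higher and 28.0% lower. The median log2 fold change was -0.04 in the 16 microvillus genes and -0.24 in the 12 other myosins tested, against 0.00 over all genes. With CSRM617 added to RANKL, most of the genes were higher: 28 of 33 were called higher, 4 lower and 1 neither, where 35.2% of the 14167 genes tested were called higher and 36.2% lower. There the median was 0.66 in microvillus genes, 0.67 in other myosins and -0.09 in the 5 paralogs and other bundlers tested, against -0.02 over all genes. With GC offsets these medians were 0.34 in microvillus genes, 0.49 in other myosins and -0.38 in the paralogs and other bundlers.

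**Figure D1:**
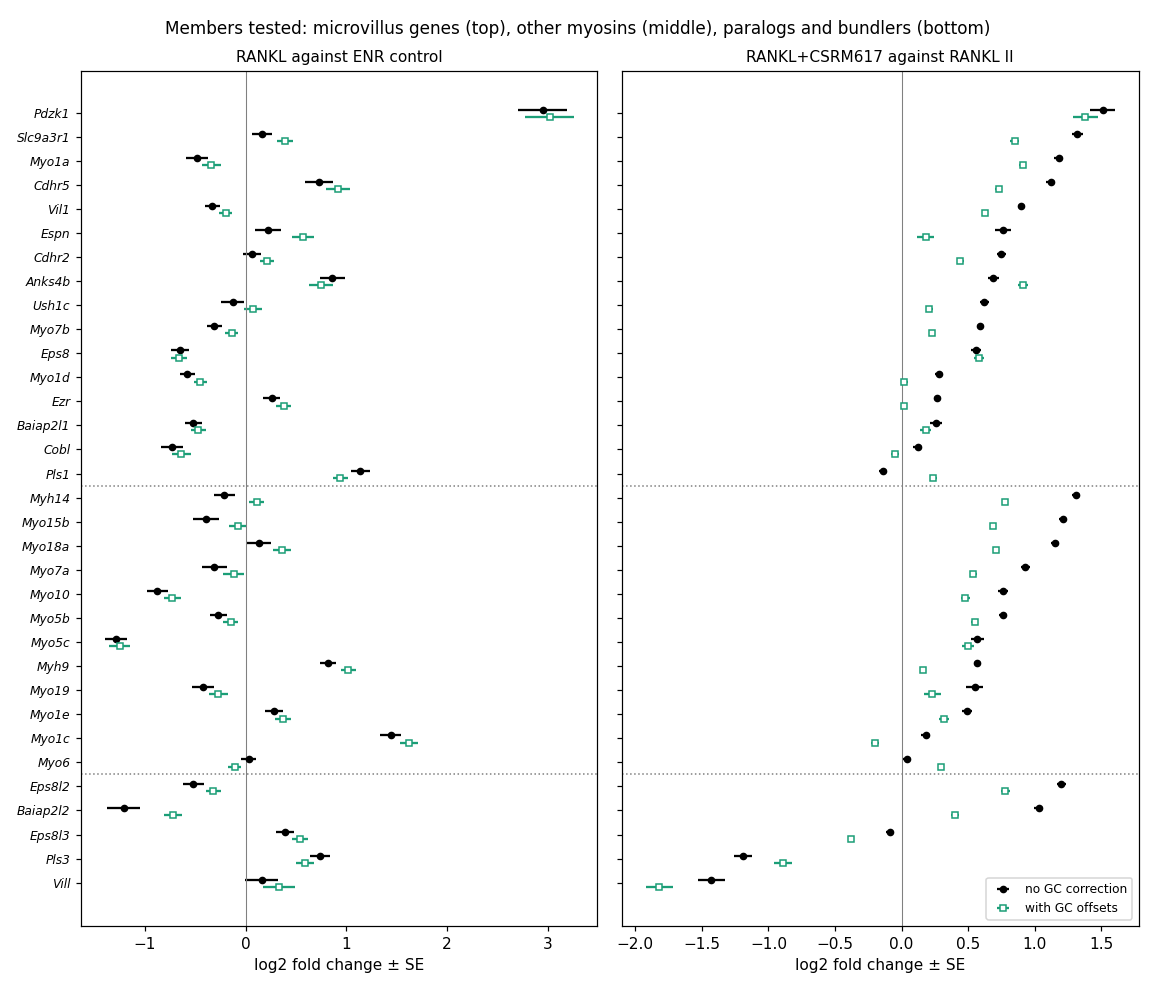
Log2 fold change (x axis, ± SE) of the 33 brush border genes tested, in RANKL against ENR control (left) and RANKL+CSRM617 against RANKL II (right), without (filled circles) and with (open squares) GC offsets. Left, values run from -1.29 for Myo5c to 2.95 for Pdzk1 with genes on both sides of 0; right, most circles lie above 0, with Vill at -1.43 and Pls3 at -1.19 the lowest.

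Among the 16 microvillus genes, RANKL libraries were called higher for 5 and lower for 7. The largest rise was in Pdzk1, which encodes a PDZ scaffold under the apical membrane. Pdzk1 had 10.1, 9.38 and 10.8 CPM in RANKL libraries, against 1.54, 1.20 and 1.14 CPM in ENR control libraries, a log2 fold change of 2.95 ± 0.243 (SE, edgeR adjusted p = 5.29e-08). Every RANKL library lay far above every ENR control library, though the level stayed among the lowest of the genes tested, at 2.84 CPM per kb of exon in RANKL and 0.364 in ENR control. Genes on the opposite strand overlap 41.7% of Pdzk1 exon bases, and no source used here gives the strand setting of the counting, so that its reads and theirs may not have been separated.

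Pls1, for the bundler plastin-1 (fimbrin) of the microvillus core, had 258, 264 and 259 CPM in RANKL libraries, against 105, 135 and 112 CPM in ENR control libraries. The groups were wide apart, and the log2 fold change was 1.14 ± 0.0929 (SE, edgeR adjusted p = 4.87e-08). Of the 5 genes of the intermicrovillar bridge, Anks4b and Cdhr5 were called higher, Cdhr2 and Ush1c were not called and Myo7b was called lower. Anks4b, for the ankyrin-repeat adaptor of the bridge complex, had 87.9, 71.9 and 61.3 CPM in RANKL libraries, against 41.3, 42.5 and 37.5 CPM in ENR control libraries. Cdhr5, for the bridge cadherin also called mucin-like protocadherin, had 227, 195 and 165 CPM in RANKL libraries, against 138, 92.5 and 125 CPM in ENR control libraries. RANKL replicate 1 was the highest library for both genes and no groups overlapped, with log2 fold changes of 0.86 ± 0.122 for Anks4b (SE, edgeR adjusted p = 2e-05) and 0.73 ± 0.141 for Cdhr5 (SE, edgeR adjusted p = 0.000633). Ezr, for ezrin, the linker of actin to the membrane, had 374, 385 and 423 CPM in RANKL libraries, against 356, 307 and 328 CPM in ENR control libraries. The gap between the groups was narrow, and the log2 fold change of 0.26 ± 0.0837 (SE, edgeR adjusted p = 0.0164) fell short without RANKL replicate 3, at 0.20 (edgeR adjusted p = 0.0856).

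The 7 microvillus genes called lower were Cobl, Eps8, Baiap2l1, Vil1, Myo1a, Myo1d and Myo7b. Cobl, for the actin nucleator cordon-bleu, had 110, 109 and 129 CPM in RANKL libraries, against 211, 161 and 206 CPM in ENR control libraries. Eps8, for the tip protein that caps and bundles filaments, had 114, 103 and 93.8 CPM in RANKL libraries, against 166, 156 and 166 CPM in ENR control libraries. Neither gene's groups overlapped, and the log2 fold changes were -0.73 ± 0.106 for Cobl (SE, edgeR adjusted p = 2.65e-05) and -0.65 ± 0.0873 for Eps8 (SE, edgeR adjusted p = 1.25e-05). Baiap2l1, for IRTKS, an I-BAR protein of the microvillus tip, had 61.6, 63.4 and 60.5 CPM in RANKL libraries, against 89.5, 84.6 and 92.5 CPM in ENR control libraries, again without overlap (log2 fold change -0.52 ± 0.0826, SE, edgeR adjusted p = 6.53e-05).

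Vil1, for villin, the bundler and severer that marks intestinal epithelium, had 423, 395 and 395 CPM in RANKL libraries, against 512, 484 and 531 CPM in ENR control libraries. All RANKL libraries were lower, by a modest log2 fold change of -0.33 ± 0.077 (SE, edgeR adjusted p = 0.00172), which was -0.20 with GC offsets (edgeR adjusted p = 0.0204).

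The 3 microvillus myosins were each lower with RANKL. Myo1a, for brush border myosin I, had 183, 156 and 129 CPM in RANKL libraries, against 224, 199 and 232 CPM in ENR control libraries (log2 fold change -0.48 ± 0.11, SE, edgeR adjusted p = 0.00153). Myo1d, for another class I motor of the microvillus, had 246, 245 and 240 CPM in RANKL libraries, against 365, 354 and 375 CPM in ENR control libraries (-0.58 ± 0.0741, SE, edgeR adjusted p = 7.31e-06). Groups of both genes stood apart, with the RANKL libraries spread widely for Myo1a and lying close together for Myo1d. Myo7b, for the motor of the intermicrovillar bridge, had 524, 523 and 500 CPM in RANKL libraries, against 656, 598 and 660 CPM in ENR control libraries. Its log2 fold change of -0.31 ± 0.0773 (SE, edgeR adjusted p = 0.00308) was -0.14 with GC offsets (edgeR adjusted p = 0.0979).

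The other 4 microvillus genes overlapped between RANKL and ENR control and were not called. For Espn, the bundler espin, the log2 fold change was 0.22 with a 95% interval of -0.04 to 0.47. The intervals were -0.03 to 0.35 for Slc9a3r1 (EBP50, an ezrin-binding scaffold), -0.11 to 0.23 for the bridge cadherin Cdhr2, and -0.36 to 0.10 for Ush1c (harmonin). With GC offsets, Espn (0.57, edgeR adjusted p = 0.000208), Slc9a3r1 (0.39, edgeR adjusted p = 0.000433) and Cdhr2 (0.21, edgeR adjusted p = 0.0194) were called higher in RANKL. The split of the microvillus genes was then 8 higher and 6 lower with a median of 0.14, where 27.1% of all genes tested were called higher and 27.0% lower with those offsets.

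**Figure D2:**
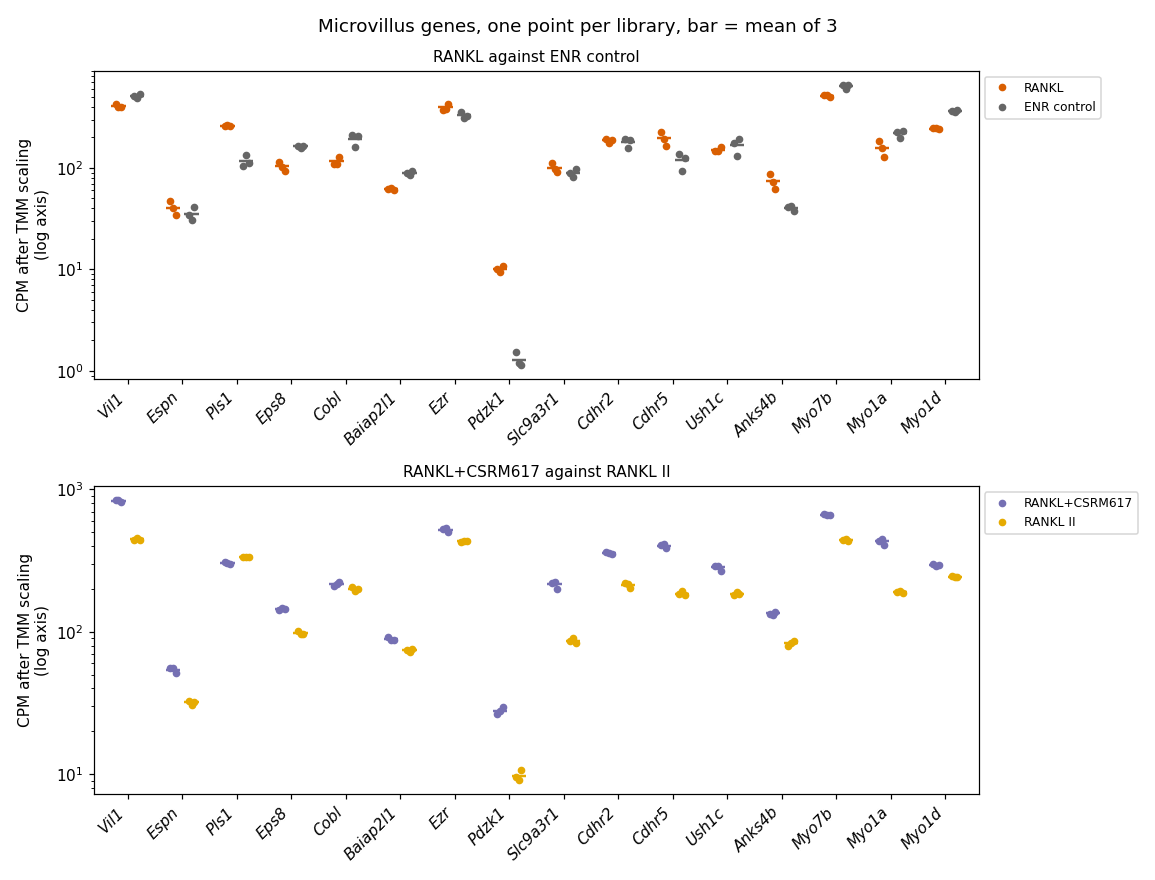
CPM after TMM scaling (log axis) of the 16 microvillus genes, 1 point per library with a bar at the mean of 3, RANKL left of ENR control and RANKL+CSRM617 left of RANKL II. RANKL points of Pdzk1 (10.1, 9.38 and 10.8 CPM) stand far above the ENR control points (1.54, 1.20 and 1.14 CPM), and for RANKL+CSRM617 against RANKL II the points of 15 of the 16 genes lie higher.

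Among the 12 other myosins tested, RANKL libraries were called higher for 3 and lower for 6. Myo1c, for a class I myosin of the lateral membrane and of vesicle traffic, had 204, 236 and 245 CPM in RANKL libraries, against 78.3, 76.5 and 98.7 CPM in ENR control libraries. The groups did not approach each other, and the log2 fold change was 1.44 ± 0.106 (SE, edgeR adjusted p = 1.45e-08). Myh9, the heavy chain of nonmuscle myosin IIA, the contractile motor of the terminal web and junctions, had 2114, 2132 and 2168 CPM in RANKL libraries, against 1253, 1116 and 1263 CPM in ENR control libraries (0.82 ± 0.0822, SE, edgeR adjusted p = 5.32e-07). Its RANKL libraries differed little among themselves, and all exceeded the ENR control libraries. Myo1e, for a class I myosin with an SH3 domain, had 110, 109 and 94.5 CPM in RANKL libraries, against 87.0, 79.4 and 93.7 CPM in ENR control libraries. Its groups nearly met, and the log2 fold change of 0.28 ± 0.0926 (SE, edgeR adjusted p = 0.0181) was not called without RANKL replicate 1 (0.24, edgeR adjusted p = 0.0784), RANKL replicate 2 (0.24, edgeR adjusted p = 0.0925) or ENR control replicate 1 (0.27, edgeR adjusted p = 0.0556).

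Myo5c, for a class V motor of secretory granules, had 72.7, 74.7 and 70.7 CPM in RANKL libraries, against 186, 144 and 205 CPM in ENR control libraries, and fell by 1.29 on the log2 scale (SE 0.111, edgeR adjusted p = 9.46e-08). Myo10, for the filopodial tip myosin, had 148, 141 and 135 CPM in RANKL libraries, against 279, 214 and 291 CPM in ENR control libraries, and fell by 0.88 (SE 0.104, edgeR adjusted p = 3.22e-06). In both genes every RANKL library was below every ENR control library, of which replicate 2 was the lowest. Myo19, for the mitochondrial myosin, had 33.3, 31.0 and 35.8 CPM in RANKL libraries, against 47.6, 39.1 and 48.2 CPM in ENR control libraries (-0.42 ± 0.11, SE, edgeR adjusted p = 0.00402), and was at -0.27 with GC offsets (edgeR adjusted p = 0.0265).

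Another 3 falls depended on the GC correction. Myo15b, for a class XV myosin, had 286, 275 and 263 CPM in RANKL libraries, against 399, 269 and 415 CPM in ENR control libraries. The groups overlapped because ENR control replicate 2 lay among the RANKL libraries, and the log2 fold change of -0.39 ± 0.129 (SE, edgeR adjusted p = 0.0189) was -0.08 with GC offsets (edgeR adjusted p = 0.467). Myo5b, for the class V motor that recycles apical vesicles, was at -0.27 (edgeR adjusted p = 0.018) and at -0.15 with GC offsets (edgeR adjusted p = 0.0947). Myo7a, for the class VII motor of sensory hair bundles, overlapped between the groups. It was at -0.31 (edgeR adjusted p = 0.0448) and at -0.12 with GC offsets (edgeR adjusted p = 0.341). Nor was Myo7a called by DESeq2 (DESeq2 adjusted p = 0.0518), limma (limma adjusted p = 0.0551) or edgeR with RLE factors (edgeR adjusted p = 0.0505). The same held without RANKL replicate 1 (edgeR adjusted p = 0.178) or RANKL replicate 2 (edgeR adjusted p = 0.0763). Each of these 3 falls was also lost when ENR control replicate 1 or 3 was left out, which left 3 of the 12 other myosins called lower: Myo5c, Myo10 and Myo19. Leaving out RANKL replicate 2 or 3 left 4 called lower.

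Myh14, the heavy chain of nonmuscle myosin IIC, which also lies in the terminal web, had 441, 432 and 453 CPM in RANKL libraries, against 544, 418 and 580 CPM in ENR control libraries. ENR control replicate 2 was below all RANKL libraries and the other ENR control libraries were above, with a log2 fold change of -0.21 and a 95% interval of -0.42 to -0.01 (edgeR adjusted p = 0.0871). Without ENR control replicate 2 it was -0.35 (edgeR adjusted p = 1.39e-05), and with GC offsets it was 0.11 (edgeR adjusted p = 0.235). That replicate had the lowest ribosomal RNA share of its group, 21.87%, and its part in these values was not tested. Myo6, the motor that moves toward the base of the filaments, had an interval of -0.11 to 0.18, and Myo18a, a Golgi-linked class XVIII myosin, of -0.10 to 0.37, and neither was called. Myo18a was called higher with GC offsets, at 0.36 (edgeR adjusted p = 0.00191). With GC offsets, the 12 other myosins split into 4 higher and 3 lower with a median of -0.09.

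The 5 paralogs and bundlers tested split evenly under RANKL, with 2 higher, 2 lower and Vill not called. Pls3, for plastin-3, had 62.9, 64.3 and 58.2 CPM in RANKL libraries, against 33.6, 40.9 and 35.4 CPM in ENR control libraries (log2 fold change 0.74 ± 0.1, SE, edgeR adjusted p = 1.26e-05). Eps8l3, an EPS8 relative, had 321, 338 and 362 CPM in RANKL libraries, against 277, 227 and 275 CPM in ENR control libraries (0.39 ± 0.0909, SE, edgeR adjusted p = 0.00163). Both stood above control in every library, and 42.5% of the Eps8l3 exon bases are shared with a gene on the opposite strand. Baiap2l2, for the I-BAR protein pinkbar of epithelial sheets, had 143, 129 and 126 CPM in RANKL libraries, against 327, 220 and 378 CPM in ENR control libraries, and fell by 1.21 on the log2 scale (SE 0.164, edgeR adjusted p = 9.27e-05). This gene has the highest GC content of the 35, 64.0%, and its value moved to -0.72 with GC offsets (edgeR adjusted p = 2.78e-06). Eps8l2 had 115, 108 and 103 CPM in RANKL libraries, against 167, 129 and 173 CPM in ENR control libraries, a log2 fold change of -0.52 (edgeR adjusted p = 0.000498) that was -0.32 with GC offsets (edgeR adjusted p = 0.00206), with 32.2% of its exon bases shared with an opposite-strand gene.

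Changes of at least 2-fold with RANKL were called for 5 of the 33 genes, a share near the 17.7% of all genes tested called at that size. They were Pls1, Pdzk1 and Myo1c upward and Myo5c and Baiap2l2 downward. With GC offsets Pls1 (0.94) and Baiap2l2 (-0.72) fell short of 2-fold, and Myh9 (1.02) reached it.

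With CSRM617 added, 15 of the 16 microvillus genes were called higher than in RANKL II and 1 lower. Without GC offsets the largest rises were in Pdzk1 and Slc9a3r1, for scaffolds that hold apical transporters and, for Slc9a3r1, bind ezrin; with them Slc9a3r1 was at 0.85, below Anks4b and Myo1a at 0.91 each. Pdzk1 had 26.3, 27.7 and 29.7 CPM in RANKL+CSRM617 libraries, against 9.53, 9.07 and 10.7 CPM in RANKL II libraries (log2 fold change 1.51 ± 0.0939, SE, edgeR adjusted p = 1.32e-18). Slc9a3r1 had 221, 224 and 201 CPM in RANKL+CSRM617 libraries, against 86.5, 89.9 and 83.5 CPM in RANKL II libraries (1.32 ± 0.0413, SE, edgeR adjusted p = 1.59e-28). Both genes stood well apart from RANKL II in each library, with replicates close together.

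The next were a motor and a bridge cadherin. Myo1a had 436, 447 and 411 CPM in RANKL+CSRM617 libraries, against 190, 194 and 186 CPM in RANKL II libraries (log2 fold change 1.18 ± 0.0325, SE, edgeR adjusted p = 2.46e-31). Cdhr5 had 406, 416 and 387 CPM in RANKL+CSRM617 libraries, against 185, 192 and 180 CPM in RANKL II libraries (1.12 ± 0.0327, SE, edgeR adjusted p = 2.21e-30). The groups lay far apart for both genes. Vil1 followed with 843, 837 and 823 CPM in RANKL+CSRM617 libraries, against 441, 456 and 444 CPM in RANKL II libraries, a log2 fold change of 0.90 ± 0.0263 (SE, edgeR adjusted p = 2.12e-30).

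All 5 genes of the intermicrovillar bridge were higher with CSRM617: Cdhr5, Cdhr2 (log2 fold change 0.75), Anks4b (0.69), Ush1c (0.62) and Myo7b. Myo7b had 673, 660 and 657 CPM in RANKL+CSRM617 libraries, against 441, 451 and 434 CPM in RANKL II libraries (0.59 ± 0.0267, SE, edgeR adjusted p = 2.34e-23). These 5 genes stayed called higher with GC offsets, at 0.73 for Cdhr5, 0.44 for Cdhr2, 0.91 for Anks4b, 0.21 for Ush1c and 0.23 for Myo7b. The core bundlers Espn (0.76) and Eps8 (0.56) were higher too, and Espn was at 0.18 with GC offsets (edgeR adjusted p = 0.00561).

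Further microvillus genes lost or reversed their calls with GC offsets. Ezr had 531, 534 and 501 CPM in RANKL+CSRM617 libraries, against 427, 437 and 433 CPM in RANKL II libraries, a log2 fold change of 0.27 ± 0.0283 (SE, edgeR adjusted p = 1.66e-11) that became 0.02 with GC offsets (edgeR adjusted p = 0.388). Myo1d went the same way, at 0.28 without offsets and 0.02 with them (edgeR adjusted p = 0.484), and Cobl stood at 0.12 without offsets and -0.05 with them (edgeR adjusted p = 0.173). Pls1, the gene of lowest GC content among the 35 (42.7%), had 310, 304 and 301 CPM in RANKL+CSRM617 libraries, against 336, 334 and 338 CPM in RANKL II libraries. It was called lower at -0.14 ± 0.0291 (SE, edgeR adjusted p = 4.22e-05) and higher with GC offsets, at 0.24 (edgeR adjusted p = 1.74e-17). Under those offsets the 16 microvillus genes split into 13 higher, 0 lower and 3 not called, where 30.2% of all genes tested were called higher and 33.6% lower. Baiap2l1 was called higher without and with the offsets, at 0.26 and 0.18 (edgeR adjusted p = 0.000134 with them).

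Of the 12 other myosins tested, 11 were called higher with CSRM617 by edgeR, 0 lower and Myo6 neither, and DESeq2 and limma also called 0 lower; every fold change was above 0, so that 0 were lower at an unadjusted p under 0.05. Myh14 rose the most, with 1151, 1150 and 1061 CPM in RANKL+CSRM617 libraries, against 454, 460 and 439 CPM in RANKL II libraries (log2 fold change 1.31 ± 0.0292, SE, edgeR adjusted p = 1.34e-32). Myo15b had 725, 742 and 693 CPM in RANKL+CSRM617 libraries, against 305, 320 and 308 CPM in RANKL II libraries (1.21 ± 0.0292, SE, edgeR adjusted p = 2.58e-33). Both stood far above RANKL II in all 3 libraries and were called higher with GC offsets, at 0.78 for Myh14 and 0.69 for Myo15b. Myo18a had 696, 691 and 647 CPM in RANKL+CSRM617 libraries, against 312, 313 and 291 CPM in RANKL II libraries (1.15 ± 0.0308, SE, edgeR adjusted p = 1.83e-30). Myo7a had 329, 330 and 308 CPM in RANKL+CSRM617 libraries, against 166, 173 and 168 CPM in RANKL II libraries (0.93 ± 0.0334, SE, edgeR adjusted p = 3.23e-27). Replicate 3 of RANKL+CSRM617 was the lowest of its group for these 4 genes, and still far above RANKL II. With GC offsets Myo18a was at 0.71 and Myo7a at 0.54.

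Myh9 had 3351, 3345 and 3082 CPM in RANKL+CSRM617 libraries, against 2192, 2214 and 2171 CPM in RANKL II libraries. The groups stood apart, with a log2 fold change of 0.57 ± 0.0264 (SE, edgeR adjusted p = 2.69e-22) that was 0.16 with GC offsets (edgeR adjusted p = 4.1e-17). The vesicle motors Myo5b (0.76) and Myo5c (0.57), the filopodial Myo10 (0.76), the mitochondrial Myo19 (0.55) and Myo1e (0.49) were also higher. With GC offsets Myo5b was at 0.55, Myo5c at 0.50, Myo10 at 0.48, Myo19 at 0.23 and Myo1e at 0.32, all still called higher. Myo1c had 266, 276 and 266 CPM in RANKL+CSRM617 libraries, against 237, 239 and 235 CPM in RANKL II libraries. Its small rise of 0.18 on the log2 scale (edgeR adjusted p = 1.37e-06) turned into -0.20 with GC offsets (edgeR adjusted p = 7.2e-12). Myo6 overlapped between the groups at 0.04 with a 95% interval of -0.01 to 0.10, and was called higher with GC offsets at 0.30 (edgeR adjusted p = 8.32e-31). With those offsets, 11 of the other myosins were higher and 1 lower, with a median of 0.49.

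The paralogs were divided with CSRM617, 2 higher and 3 lower. Vill, a villin-like gene, had 8.66, 7.57 and 7.58 CPM in RANKL+CSRM617 libraries, against 22.7, 21.1 and 20.3 CPM in RANKL II libraries, and fell by 1.43 on the log2 scale (SE 0.103, edgeR adjusted p = 1.94e-16). Pls3 had 24.9, 20.4 and 23.6 CPM in RANKL+CSRM617 libraries, against 53.9, 53.8 and 49.0 CPM in RANKL II libraries, and fell by 1.19 (SE 0.0698, edgeR adjusted p = 1.92e-19). Both genes were lower in every RANKL+CSRM617 library, while their microvillus relatives Vil1 and Pls1 were at 0.90 and -0.14. Eps8l2 had 251, 250 and 241 CPM in RANKL+CSRM617 libraries, against 109, 108 and 105 CPM in RANKL II libraries (1.20 ± 0.0355, SE, edgeR adjusted p = 3e-30), and was at 0.78 with GC offsets. Baiap2l2 had 300.3, 310.2 and 289 CPM in RANKL+CSRM617 libraries, against 153, 147 and 141 CPM in RANKL II libraries (1.03 ± 0.035, SE, edgeR adjusted p = 5.53e-28), and was at 0.40 with GC offsets (edgeR adjusted p = 2.12e-29). Eps8l3 was at -0.09 (edgeR adjusted p = 0.00609), was not called by DESeq2 (-0.08, DESeq2 adjusted p = 0.0571) or without RANKL II replicate 2 (-0.07, edgeR adjusted p = 0.0674), and was at -0.38 with GC offsets (edgeR adjusted p = 2.78e-41).

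At least 2-fold changes with CSRM617 were found for 11 of the 33 genes, where 13.1% of all genes tested were called at that size. They were Pdzk1, Slc9a3r1, Cdhr5 and Myo1a among microvillus genes, Myo15b, Myo18a and Myh14 among other myosins, and Eps8l2 and Baiap2l2 upward and Vill and Pls3 downward among the paralogs. With GC offsets only Pdzk1 (1.38) and Vill (-1.82) of these stayed at that size. The others lay between -0.89 for Pls3 and 0.91 for Myo1a, so that the count depended on the GC correction.

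**Figure D3:**
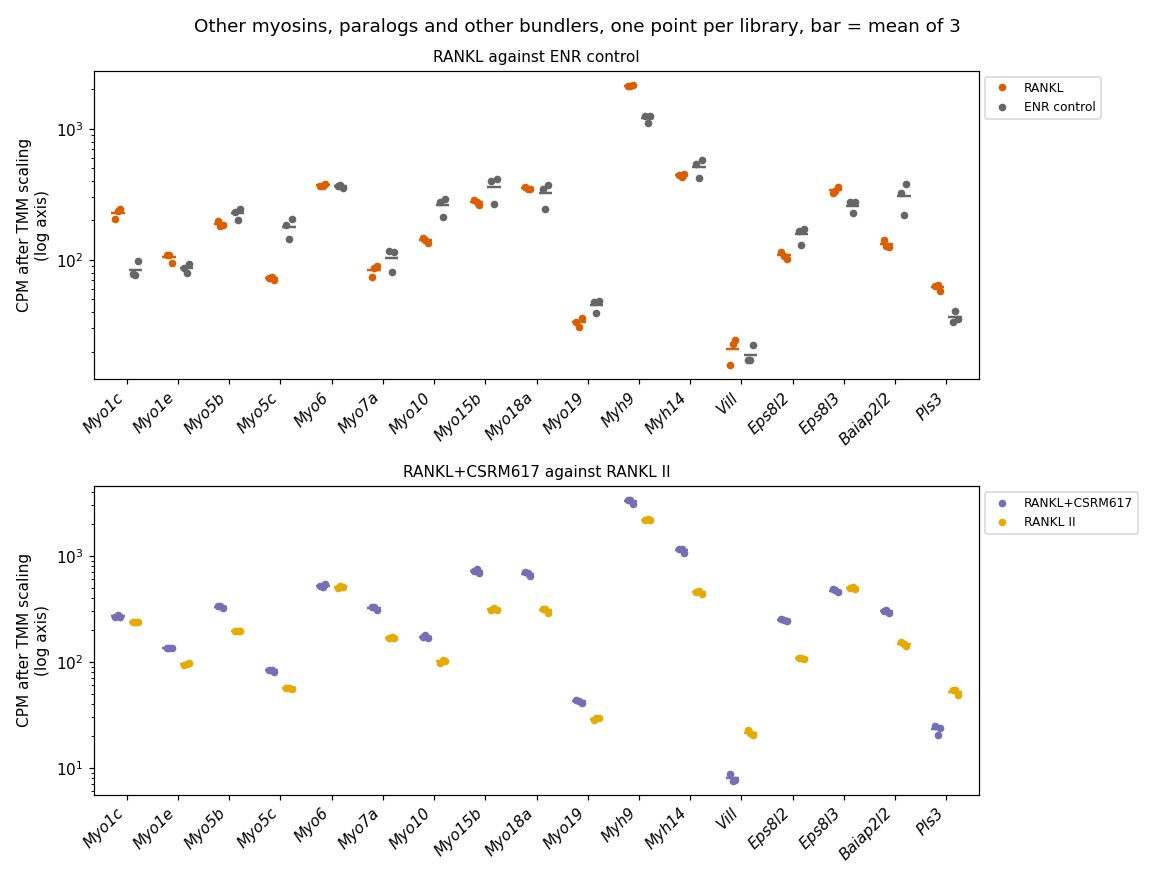
CPM after TMM scaling (log axis) of the 12 other myosins tested and the 5 paralogs and bundlers tested, 1 point per library with a bar at the mean of 3, RANKL left of ENR control and RANKL+CSRM617 left of RANKL II. Myo1c and Myh9 points lie higher and Myo5c points lower in RANKL than in ENR control, and Myh14 points lie at 1061 to 1151 CPM in RANKL+CSRM617 against 439 to 460 CPM in RANKL II.

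The comparisons share no libraries, so that each gene's calls can be set side by side. All 15 genes called lower in RANKL than in ENR control were called higher in RANKL+CSRM617 than in RANKL II, where 51.9% of the 3660 genes called lower with RANKL among all genes tested in both were. They were Vil1, Eps8, Cobl, Baiap2l1, Myo1a, Myo1d and Myo7b of the microvillus, the myosins Myo5b, Myo5c, Myo7a, Myo10, Myo15b and Myo19, and the paralogs Eps8l2 and Baiap2l2. With GC offsets Cobl and Myo1d of these were not called higher with CSRM617, and Myo7b, Myo5b, Myo7a and Myo15b were not called lower with RANKL. Of the 10 genes called higher with RANKL, 7 were higher again with CSRM617 (Anks4b, Cdhr5, Ezr, Pdzk1, Myh9, Myo1c and Myo1e) and 3 lower (Pls1, Pls3 and Eps8l3), where 26.5% of the 3847 genes called higher with RANKL were higher and 54.0% lower. With GC offsets, Ezr was not called and Myo1c was lower in RANKL+CSRM617, and Pls1 was higher. The trends with GC content run in opposite directions in the comparisons, and their part in these counts was not tested beyond the offsets.

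**Figure D4:**
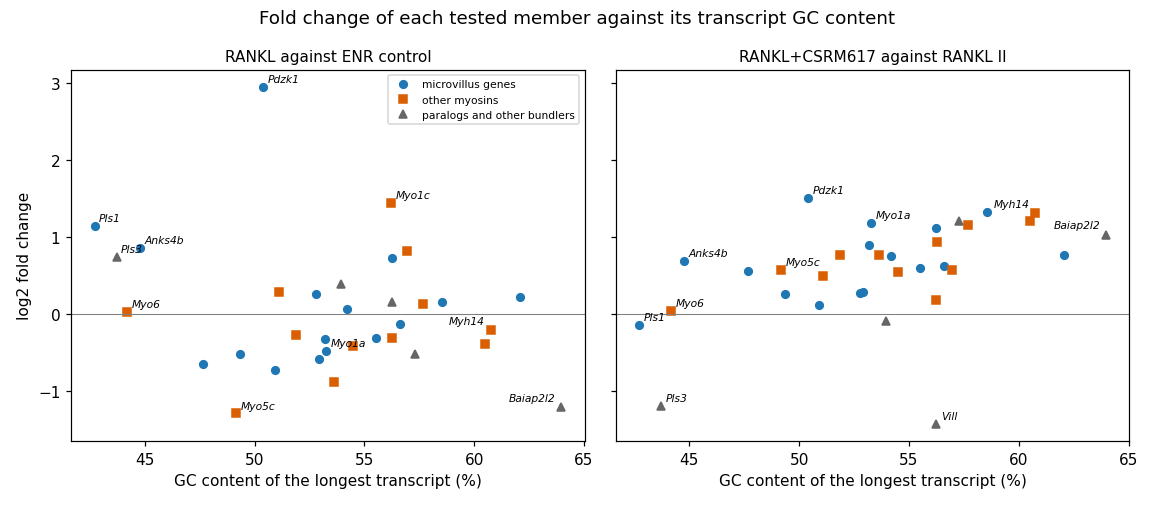
Log2 fold change (y axis) of each of the 33 genes tested against the GC content of its longest transcript in percent (x axis), RANKL against ENR control left and RANKL+CSRM617 against RANKL II right, with symbols by gene class. Right, Pls1 and Pls3 at the low-GC end lie below 0 and Myh14 and Baiap2l2 at the high-GC end lie at 1.31 and 1.03.

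Over the 33 genes, Spearman's rho between log2 fold change and GC content was -0.08 for RANKL against ENR control and 0.55 for RANKL+CSRM617 against RANKL II, and 0.05 and 0.12 with GC offsets. These genes share libraries, and the values are a description across genes. Median GC content was 53.1% in microvillus genes, 54.5% in other myosins and 56.8% in the paralogs and bundlers, against 49.2% in all genes tested.

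Levels per length put the members on 1 scale (CPM per kb of merged exon). Myh9 was highest in RANKL at 165 CPM per kb, against 93.7 in ENR control, where it ranked 6 and overlapped with Myo7b. Vil1 was highest in ENR control at 143 CPM per kb and ranked 4 in RANKL at 114, where it overlapped with Ezr at 120. In RANKL+CSRM617 the order was Myh9 at 252, Vil1 at 235, Eps8l3 at 207 and Ezr at 159 CPM per kb, and in RANKL II it was Eps8l3 at 220, Myh9 at 170, Ezr at 131 and Vil1 at 126, with no overlap between neighbours in either list of 4. Pdzk1 stayed low throughout, at 7.84 in RANKL+CSRM617 and 2.74 in RANKL II.

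The make-up of the families moved as well (shares of the family's summed CPM per kb, mean ± SD, n = 3 each). Among the 4 class I myosins, Myo1a made up 31.6% ± 4.08 in RANKL and 41.0% ± 0.987 in ENR control, and Myo1c 26.2% ± 3.53 in RANKL and 8.93% ± 0.828 in ENR control. The family sum was similar, at 133 ± 6.25 CPM per kb in RANKL and 143 ± 9.13 in ENR control. With CSRM617, Myo1a made up 51.3% ± 1.07 in RANKL+CSRM617 and 36.1% ± 0.339 in RANKL II, with Myo1c at 18.1% ± 0.29 in RANKL+CSRM617 and 25.4% ± 0.0274 in RANKL II.

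Nonmuscle myosin II shifted toward Myh9 with RANKL, 73.1% ± 0.325 in RANKL and 57.2% ± 2.55 in ENR control, and toward Myh14 with CSRM617, 37.9% ± 0.035 in RANKL+CSRM617 and 26.8% ± 0.31 in RANKL II. In the bridge complex, Cdhr5 took 28.1% ± 2.77 in RANKL and 18.1% ± 1.80 in ENR control, and Myo7b 30.9% ± 1.32 in RANKL and 40.9% ± 2.40 in ENR control. Cdhr5 took 33.3% ± 0.612 in RANKL+CSRM617 and 26.5% ± 0.273 in RANKL II, and Myo7b 22.7% ± 0.346 in RANKL+CSRM617 and 26.1% ± 0.11 in RANKL II. Within the Eps8 family, Eps8l3 held 83.97% ± 1.71 in RANKL and 73.0% ± 0.346 in ENR control, and 78.2% ± 0.232 in RANKL+CSRM617 and 88.7% ± 0.258 in RANKL II. None of these shares was tested.

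**Figure D5:**
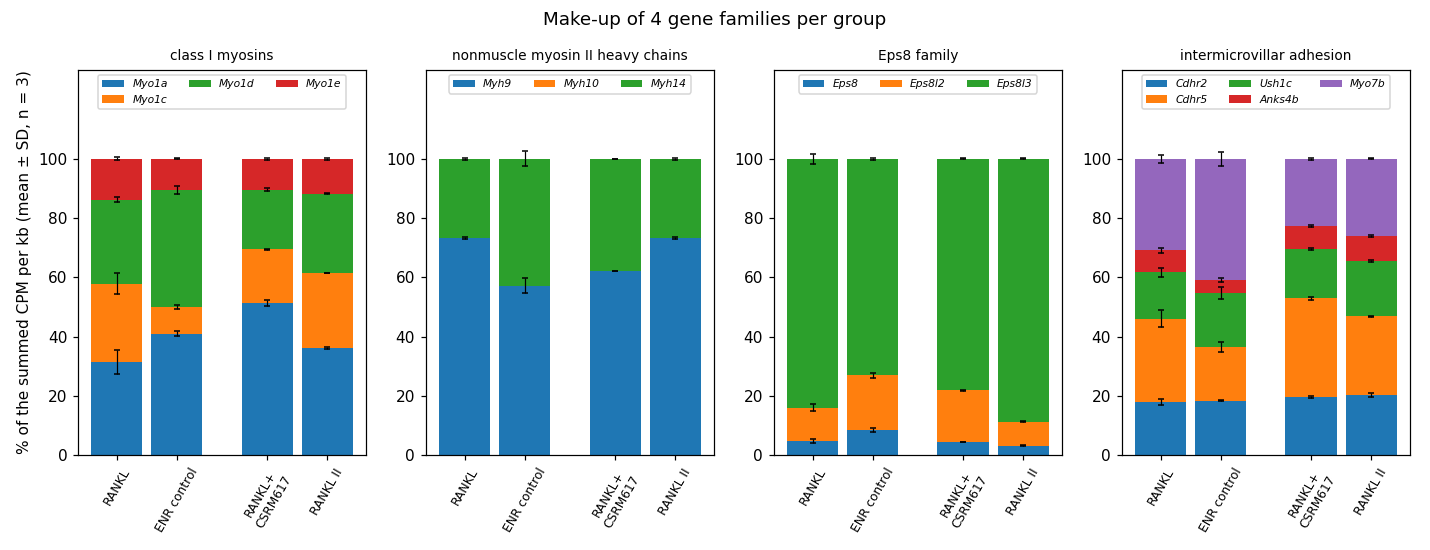
Share of each gene in its family's summed CPM per kb of exon (stacked bars from 0, mean of 3 libraries, error bars SD), for class I myosins, nonmuscle myosin II heavy chains, the Eps8 family and the intermicrovillar bridge, with RANKL left of ENR control and RANKL+CSRM617 left of RANKL II. Myo1c fills 26.2% of the class I myosins in RANKL and 8.93% in ENR control, and Myh9 fills 73.1% of nonmuscle myosin II in RANKL and 57.2% in ENR control.

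Promoters are shown for 3 of the 7 genes called higher in both comparisons, picked because they hold an ONECUT or HNF4 match (Cdhr5 and Ezr hold no match to any motif searched), and for Vil1, to set the letters known for epithelial factors beside the expression changes. The sequences are from RefSeq (GRCm38.p6), plus strand, each with 250 bases before and 30 bases from the annotated start, and capitals mark motif matches on either strand. Pdzk1 lies on chromosome 3 at 96829284 to 96870926 in the GENCODE annotation of GRCm38, which places its start upstream of this window, Anks4b on chromosome 7 at 120173858 to 120185586, Myo1c on chromosome 11 at 75650504 to 75673910 and Vil1 on chromosome 1 at 74409376 to 74435559. In capitals are ATTGAT, the core of ONECUT sites, in Pdzk1 (as its reverse complement) and Myo1c, CAAAGTNCA, a site type of HNF4 factors, in Pdzk1 and Anks4b, and a CArG box, the site type of serum response factor, in Vil1.
Pdzk1 (chr3:96829815-96830094): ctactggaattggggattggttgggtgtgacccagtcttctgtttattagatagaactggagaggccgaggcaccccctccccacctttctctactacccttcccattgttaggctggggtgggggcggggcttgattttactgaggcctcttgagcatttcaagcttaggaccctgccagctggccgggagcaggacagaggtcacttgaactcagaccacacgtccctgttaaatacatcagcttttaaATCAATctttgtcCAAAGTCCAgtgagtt
Anks4b (chr7:120173608-120173887): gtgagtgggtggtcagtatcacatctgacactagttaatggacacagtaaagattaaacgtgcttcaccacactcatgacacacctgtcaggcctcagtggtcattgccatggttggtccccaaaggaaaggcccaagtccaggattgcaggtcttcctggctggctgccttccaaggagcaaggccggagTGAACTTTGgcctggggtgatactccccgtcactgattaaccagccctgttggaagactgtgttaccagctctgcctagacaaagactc
Myo1c (chr11:75650269-75650548): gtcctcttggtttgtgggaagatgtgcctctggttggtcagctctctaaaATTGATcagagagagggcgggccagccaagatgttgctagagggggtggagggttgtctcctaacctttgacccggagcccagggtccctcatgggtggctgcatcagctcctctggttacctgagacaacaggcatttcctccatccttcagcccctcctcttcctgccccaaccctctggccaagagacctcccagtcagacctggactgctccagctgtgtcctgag
Vil1 (chr1:74409134-74409413): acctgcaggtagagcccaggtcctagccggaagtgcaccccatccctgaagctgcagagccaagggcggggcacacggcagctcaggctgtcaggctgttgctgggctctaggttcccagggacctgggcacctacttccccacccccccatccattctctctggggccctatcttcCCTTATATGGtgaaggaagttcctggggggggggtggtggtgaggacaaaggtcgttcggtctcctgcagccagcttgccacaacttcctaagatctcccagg

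The Pdzk1 window holds the ONECUT letters from 1 base after the start base and the HNF4 letters from 14 bases after it, without overlap between them. The other matches begin 59 bases before the start in Anks4b, 200 bases before it in Myo1c and 73 bases before it in Vil1. Of the start sites available, 2 for Pdzk1 and 3 for Myo1c, only the first listed was used for each gene. RefSeq promoters of 300 bases were matched for 30 of the 35 genes. ATTGAT was in 2 of these 30 and in 7.76% of 27025 promoters, CAAAGTNCA in 2 and in 1.41%, the CArG box in 2 (Vil1 and Myo1e) and in 1.57%, and TTTATNG, a CDX site, in 4 (Myo1e, Myh9, Vill and Fscn1) and in 11.3%. A match describes letters only.

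Another 40 genes of the apical actin network, from actin and myosin light chains to spectrins and capping proteins, were counted beside the members. With RANKL, 23 of the 36 tested were called higher and 5 lower, with a median log2 fold change of 0.43. Over all genes tested, 28.7% were called higher and 28.0% lower. The largest falls were in Slc9a3r2 (-1.64, edgeR adjusted p = 0.000432) and Pdzd3 (-1.14, edgeR adjusted p = 0.00136), both at low levels (means of 1.53 and 2.77 CPM in RANKL). Mylk, for myosin light chain kinase, had 363, 376 and 409 CPM in RANKL libraries, against 12.7, 14.9 and 18.3 CPM in ENR control libraries (4.66 ± 0.117, SE, edgeR adjusted p = 1.93e-13). Clic5, a partner of ezrin in microvilli, had 140, 124 and 120 CPM in RANKL libraries, against 32.8, 26.9 and 29.9 CPM in ENR control libraries (2.10 ± 0.103, SE, edgeR adjusted p = 1.21e-10). Both were wide apart from control in all libraries, as was beta-actin, Actb, at 2896, 2889 and 2766 CPM in RANKL libraries, against 1185, 1405 and 1177 CPM in ENR control libraries. With CSRM617, 18 of the 37 tested were higher and 17 lower (median 0.07), where 35.2% of all genes tested were higher and 36.2% lower. GC offsets gave 11 higher and 16 lower (median -0.01), where 30.2% of all genes tested were higher and 33.6% lower. The Arp2/3 subunits Actr2 (-0.61) and Actr3 (-0.63) were lower, and with GC offsets Actr2 was at -0.01 (edgeR adjusted p = 0.752). Slc9a3, for the sodium/proton exchanger NHE3, which the Slc9a3r1 and Pdzk1 proteins bind, had 13.7, 15.6 and 12.8 CPM in RANKL+CSRM617 libraries, against 3.73, 2.89 and 3.20 CPM in RANKL II libraries (2.10 ± 0.144, SE, edgeR adjusted p = 3.7e-17). With RANKL, Slc9a3 was not called, at -0.21 (edgeR adjusted p = 0.606). With CSRM617, Slc9a3r2 was lower, at -1.01 (edgeR adjusted p = 0.00492), and Pdzd3 higher, at 0.88 (edgeR adjusted p = 2.7e-10). The ezrin relatives radixin and moesin had almost no counts: Rdx had 0 counts in RANKL, ENR control and RANKL+CSRM617 and 1 in RANKL II, and Msn had 0 in RANKL, 7 in ENR control, 0 in RANKL+CSRM617 and 1 in RANKL II.

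Markers of cell types moved beside these genes. Over all genes tested, 28.7% were called higher and 28.0% lower with RANKL, and 35.2% higher and 36.2% lower with CSRM617. Of 10 mature enterocyte markers, 4 were higher and 5 lower with RANKL, with summed levels of 2523 to 3489 CPM in RANKL and 1244 to 1576 CPM in ENR control. Apoa4, Sis and Apoa1, all higher, made up most of the RANKL sum, at means of 1054, 880 and 594 CPM. Lct (-1.51), Anpep (-1.61), Fabp1 (-1.64), Fabp2 (-1.23) and Slc5a1 (-0.47) were lower. With CSRM617 all 10 were higher, with sums of 9044 to 9368 CPM in RANKL+CSRM617 and 3766 to 3829 CPM in RANKL II. All 8 M cell markers were higher with RANKL, with sums of 946 to 1034 CPM in RANKL and 58.0 to 63.7 CPM in ENR control, where Gp2 and Sox8 had 0 counts. With CSRM617, 4 were higher: Tnfaip2 (0.78), Marcksl1 (0.54), Spib (0.38) and Sox8 (0.24). The 4 lower were Gp2 (-1.56), Ccl9 (-0.94), Ccl20 (-0.38) and Anxa5 (-0.12). Sums were 978 to 1013 CPM in RANKL+CSRM617 and 974 to 992 CPM in RANKL II. Anxa5, Spib and Marcksl1 made up most of the RANKL+CSRM617 sum, at means of 312.5, 288 and 192 CPM. GC offsets gave 3 M cell markers higher and 3 lower, where 30.2% of all genes tested were higher and 33.6% lower. Ccl20 was then higher, at 0.34, and Spib (0.04) and Sox8 (-0.06) were not called. Tuft cells also carry villin and an apical actin tuft, and 4 of 5 tuft markers were higher with RANKL (sums of 133 to 164 CPM in RANKL and 93.6 to 127 CPM in ENR control) and 5 of 5 with CSRM617 (117 to 123 CPM in RANKL+CSRM617 and 75.6 to 79.5 CPM in RANKL II). Of 5 Paneth cell markers, 4 fell with RANKL and Mmp7, which made up much of the RANKL sum at a mean of 251 CPM, rose by 2.16 on the log2 scale, and with CSRM617 4 were higher and Mmp7 lower. Summed markers of Paneth cells were 367 to 383 CPM in RANKL and 505 to 865 CPM in ENR control, and 840 to 865 CPM in RANKL+CSRM617 and 550.1 to 564 CPM in RANKL II. Of 5 goblet cell markers, 3 were higher and Muc2 (-0.87) and Spink4 (-1.84) lower with RANKL, and with CSRM617 4 were higher and Zg16 (-0.72) lower; Fcgbp alone averaged 2091 CPM in RANKL. Summed goblet cell markers were 1852 to 2678 CPM in RANKL and 952 to 996 CPM in ENR control, and 3686 to 3852 CPM in RANKL+CSRM617 and 2657 to 2724 CPM in RANKL II. Summed enteroendocrine markers were 17.4 to 22.3 CPM in RANKL and 22.8 to 34.7 CPM in ENR control, and 40.2 to 50.3 CPM in RANKL+CSRM617 and 16.7 to 18.4 CPM in RANKL II. The part of cell composition in the changes of brush border genes was not tested. Immune and stromal marker sums were at most 3.73 CPM in any library, and Col1a2 had 0 counts in all 12.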

How the data were processed

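Bulk RNA of 12 organoid libraries was sequenced after ribosomal RNA depletion, per the labels, as 42-bp read pairs. The authors deposited 1 table of raw gene counts for each comparison, made with STAR and HTSeq 0.13.5 on mm10 (GRCm38), with DESeq2 1.34.0 also named, per the submitters' processing notes. No source used here gives the STAR version, the annotation or the strand setting. Normalized values that the authors deposited on a log2 scale served as an alternative. Samples were grouped by their titles.

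Each comparison's 6 libraries were tested on raw counts with edgeR 4.0.16 (robust quasi-likelihood test after filterByExpr, with TMM factors) in R 4.3.3, without covariates, with Benjamini-Hochberg adjustment over all genes tested and a threshold of 0.05. The procedure was run on simulated counts without a trend on GC content, so that the simulation does not cover the GC trends of these data. Fold changes are tested over control with unshrunken SE, CPM use TMM-scaled totals, and lengths, GC content and coordinates come from the GENCODE M21 annotation. Each 95% interval takes 1.96 SE on each side, a normal approximation that is narrower than the edgeR test would give. Alternatives were DESeq2 1.42.0, limma 3.58.1 on the log2 tables, RLE and upper-quartile factors, no filter, a stricter filter (CPM of at least 1 in 3 libraries), a replicate block, GC offsets (smoothing spline, 6 degrees of freedom) without and with that block, and leaving out each library. Per-library values were printed for the 4 largest rises and falls called in each class, and always for Vil1, Ezr, Myo1a, Myo7b, Myh9 and Myh14. The members and lists were chosen with earlier results of these data known, and no p-value was adjusted over a list. Where counts are low, precision is limited by counting error, which the floor of 3 counts covers alone.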

Additional observations from a re-analysis of the deposited data

How the results depend on the processing

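Of 33 genes tested, 19 kept their call and direction under every alternative for RANKL against ENR control and 26 for RANKL+CSRM617 against RANKL II, and 28 and 29 kept their direction. For RANKL, GC offsets, with or without the replicate block, gave 8 microvillus genes called higher in place of 5 and 3 other myosins called lower in place of 6, and leaving out 1 library at a time gave 3 to 7 other myosins called lower. Ush1c turned to 0.07, Myo6 to -0.11 and Myh14 to 0.11 with GC offsets, with or without the block, and Cdhr2 ranged from -0.03 to 0.10 and Myo18a from -0.04 to 0.24 when 1 library was left out, turning negative without ENR control replicate 2. For CSRM617, GC offsets with or without the block gave 0 microvillus genes and 1 other myosin called lower, and turned Pls1 to 0.24, Myo1c to -0.20 and Cobl to -0.05 (-0.04 with the block). The median log2 fold change was then 0.341 for microvillus genes, 0.489 for other myosins (0.488 with the block) and -0.383 for the paralogs (-0.384 with the block). Upper-quartile factors gave a microvillus median of 0.613 and Myo6 at 0.00. The cause was not tested. The counts showed no sign of pairing by replicate number: same-numbered libraries had correlations of deviations between -0.0111 and 0.057, none over 0.1. The labels do not say whether equal numbers share a batch, and low correlations cannot show that they do not. The replicate block alone changed no gene's call, 33 of 33 in each comparison, and left 5 and 7 microvillus genes called higher and lower with RANKL. With 3 libraries a group, changes such as Ezr and Myo1e with RANKL lie near the limit of detection.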
